A study of Ambystoma mexicanum with 17 samples.

Results

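Blastemas grown from posterior forelimb tissue of the axolotl under U0126 were compared with blastemas grown from anterior forelimb tissue without the drug. U0126 blocks MEK, the kinase that activates ERK, the last kinase of the cascade through which fibroblast growth factors (FGFs) act. The groups were taken from the sample titles and held 10 of the 17 libraries of the series. They were 5 U0126 posterior blastemas, exposed to 25 uM of the inhibitor, and 5 anterior blastemas, labelled as untreated. Levels in 4 untreated posterior blastemas and 3 samples of uninjured forelimb are given beside them for some genes. All animals were of the d/d genotype. Deviated nerves had induced all the blastemas, which were harvested 10 days after injury with the wound epithelium still on them, and polyadenylated RNA was sequenced. The labels give Holtfreter's solution and DMSO in 1 phrase for limbs without inhibitor, so whether the anterior blastemas received the solvent is not clear. Neither the age of the animals nor how long the drug was applied is given in the sources used here. The compared groups differ in position and in drug at once, so a difference between them cannot be told apart as an effect of one or the other. TBX5, which marks the forelimb, was detected in all 10 libraries, at 2.34 to 17.7 CPM in U0126 posterior and 10.2 to 23.9 CPM in anterior blastemas (CPM, reads per 1000000 of a library's total after scaling).

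A limb has an anterior and a posterior territory, and a blastema needs cells of both to grow into a limb. Posterior cells express HAND2 and make the ligand sonic hedgehog (SHH), while anterior cells express regulators such as ALX4 and GLI3 and, in the axolotl, the growth factor FGF8. The signals of the territories sustain each other. FGFs act through ERK, and active ERK raises the expression of its own inhibitors, among them sprouty proteins and dual-specificity phosphatases.

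The 10 libraries held 38251836 to 53856865 reads counted in genes. The labels do not say that replicates came from separate animals, so a p-value here reflects the spread from library to library. These are bulk samples, in which fewer cells of a type and less RNA per cell cannot be told apart. The library labelled U0126 posterior replicate 5 and the library labelled uninjured replicate 1 stood apart from their groups. With both left out of the fit, 502 genes were higher and 396 lower in U0126 posterior than in anterior blastemas (4.54% of 19779 genes tested). U0126 posterior libraries 1 to 4, which entered that fit, lay above every anterior library for 92.6% to 99.4% of the 502 genes. Replicate 5 did so for 42.6% of them, uninjured replicate 1 for 88.6%, and uninjured replicates 2 and 3 for 47.2% and 41.4%. Over the 396 lower genes, replicate 5 lay below every anterior library for 56.8%, against 80.3%, 60.1% and 56.3% in uninjured replicates 1, 2 and 3. By these values the library labelled U0126 posterior replicate 5 lay near uninjured replicates 2 and 3, and the library labelled uninjured replicate 1 near the other U0126 posterior libraries. Whether the 2 libraries were exchanged was not tested. Of 99 genes followed here, 9 overlap the span of another gene, from start to end, in the table used for names: MAB21L2 (with LRBA), FZD7 (with KIAA2012), AIFM3 (with TAB3), MDM2 (with SLC35E3), and DHRS3, ETV4, MATN4, GCLM and SC5D (each with an unnamed locus). Whether their exons overlap, which would matter for counts taken without strand, was not checked. All groups were kept as labelled, and tests of single genes are given with and without U0126 posterior replicate 5.

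Of 19398 genes tested, 229 (1.18%) differed between U0126 posterior and anterior blastemas at an adjusted p under 0.05 in edgeR's quasi-likelihood test. Of these, 109 (0.562%) were higher and 120 (0.619%) lower in U0126 posterior blastemas. The median log2 fold change over all genes was 0.02. Without replicate 5 the calls numbered 430 of 19332 genes (2.22%), with 234 higher (1.21%) and 196 lower (1.01%), and 202 of the 229 genes were called again in the same direction. For 854 genes (4.4%) no U0126 posterior library overlapped any anterior library, 397 of them higher and 457 lower. The number of calls depended on the libraries. It was 36 to 78 when U0126 posterior replicate 1, 2 or 3 or anterior replicate 1, 2, 4 or 5 was left out. It was 828 without U0126 posterior replicate 4 and 236 without anterior replicate 3. Of 40 called genes followed through these repeats, 13 kept an adjusted p under 0.05 whichever library was left out. They were LHX9, ALX4, MECOM, MAB21L2, ALDH1A3, C1QA, C1QB, C1QC, SLA2, INKA1, LONRF1, ABCB6 and PIR. For the others, the range of adjusted p over the libraries whose removal ended the call is given beside the result. For genes not called, fits that left out 1 library other than U0126 posterior replicate 5 are given mainly where the gene passed. Passes without U0126 posterior replicate 4 come from the fit that called 828 of 19345 genes tested.

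**Figure D1:**
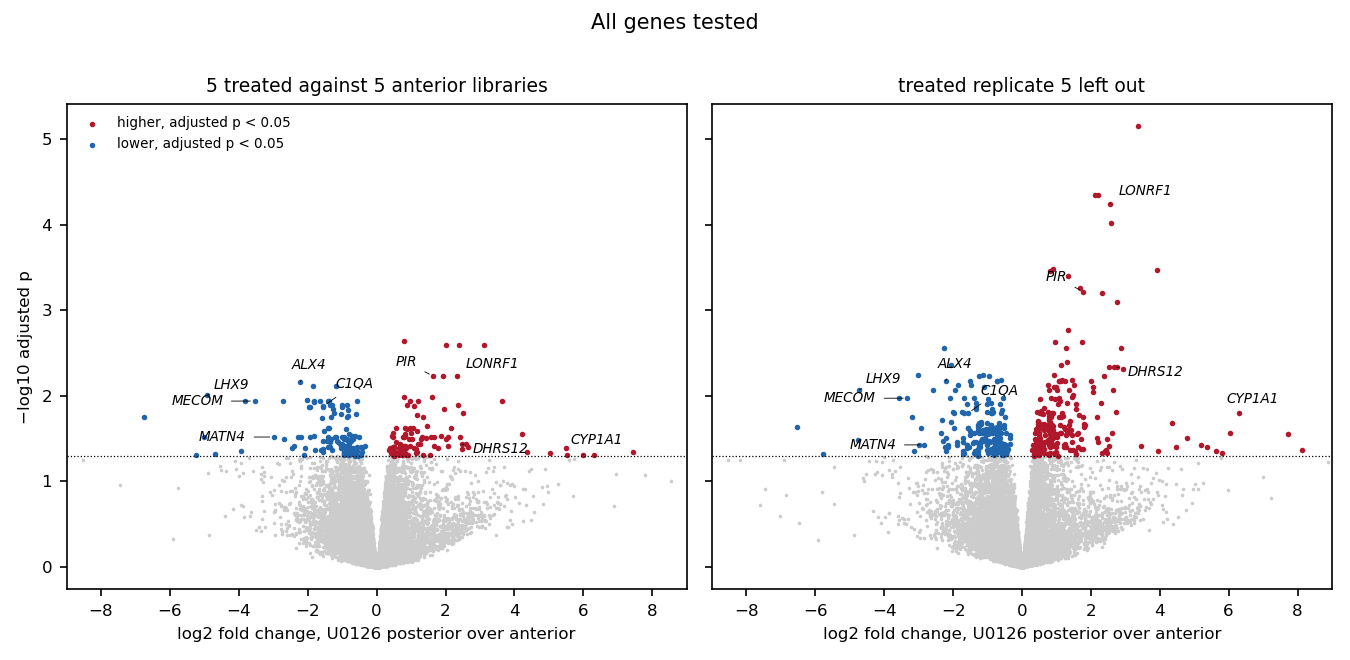
Log2 fold change of U0126 posterior over anterior blastemas (horizontal) against −log10 of the adjusted p from edgeR (vertical), 1 point per gene, with all 5 U0126 posterior libraries on the left and without replicate 5 on the right. The dotted line marks an adjusted p of 0.05; 229 genes lie above it on the left and 430 on the right, where the points furthest up are genes higher in U0126 posterior blastemas.

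Several regulators of the anterior limb were lower in U0126 posterior than in anterior blastemas. This list and those below were chosen with earlier results of these data known, so their counts and medians are descriptions. Of 15 tested genes of the anterior list, 4 fell and none rose, against 0.619% and 0.562% of all genes. The median log2 fold change of the list was −2.21, against 0.02 over all genes, and 12 of its genes had a fold change below 0. Without U0126 posterior replicate 5, 3 fell (1.01% of all genes), and the median was −2.17. LHX9, a LIM homeodomain factor that in the mouse limb bud relays signals from the ectoderm to the mesenchyme, was at 0.281, 0.232, 0.456, 1.59 and 0.206 CPM in U0126 posterior replicates 1 to 5, against 22.6, 25, 11.5, 11.6 and 13.2 CPM in anterior replicates 1 to 5. Every U0126 posterior library lay far below every anterior one, and replicate 4 was the highest of its group. LHX9 had a log2 fold change of −4.92 ± 0.72 (± is the SE here and for later fold changes; adjusted p = 0.00979) and one of −4.72 ± 0.77 without replicate 5 (adjusted p = 0.00845). LHX9 was also at 0.109 to 0.408 CPM in the untreated posterior blastemas. ALX4, a homeodomain factor whose loss in the mouse leads to SHH at the anterior margin of the limb bud, stood at 2.39, 2.7, 2.91, 6.72 and 3.65 CPM in U0126 posterior blastemas and 17.2, 25.9, 10.1, 15.4 and 16.6 CPM in anterior blastemas. The groups did not overlap, and replicate 4 was again the highest U0126 posterior library. ALX4 fell by 2.21 on the log2 scale (SE 0.31, adjusted p = 0.00685; 0.00666 without replicate 5), and it was at 4.22 to 7.68 CPM in untreated posterior blastemas.

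MAB21L2, a developmental gene of the Mab21 family, was at 0.375, 0.422, 0.434, 1.08 and 0.129 CPM under U0126 and 4.77, 11.5, 3.97, 7.03 and 7.22 CPM in anterior blastemas. All treated libraries lay below all anterior ones, with a log2 fold change of −3.82 ± 0.61 (adjusted p = 0.0115; 0.0106 without replicate 5). GLI3, a zinc-finger factor whose repressor form holds back hedgehog targets, was at 8.67, 11.1, 8.42, 22.1 and 9.23 CPM in U0126 posterior blastemas, against 40.4, 45, 19.7, 28.4 and 24.3 CPM in anterior blastemas. Here replicate 4 overlapped the anterior range while the other 4 treated libraries lay below it. Untreated posterior blastemas were at 17.2 to 31.4 CPM. The log2 fold change of GLI3 was −1.41 ± 0.30 (adjusted p = 0.0391). The call ended without U0126 posterior replicate 5 (adjusted p = 0.0504), and also without U0126 posterior replicate 1, 2 or 3 or anterior replicate 1, 2, 4 or 5, with an adjusted p of up to 0.121. The remaining genes of the list with large differences did not pass. FGF8 was at 0.0703, 0.126, 0.0868, 0.831 and 0.0257 CPM in U0126 posterior and 5.28, 3.31, 1.42, 0.959 and 0.797 CPM in anterior blastemas (log2 fold change −3.36 ± 0.92, adjusted p = 0.081; 0.104 without U0126 posterior replicate 5). LHX2, a close relative of LHX9, had a log2 fold change of −3.87 ± 1.06 (adjusted p = 0.0795; 0.105 without U0126 posterior replicate 5) with no overlap between the groups, and the homeodomain gene ALX1 one of −2.47 ± 0.70 (adjusted p = 0.088; 0.0767 without U0126 posterior replicate 5). Without U0126 posterior replicate 4, which held the highest treated value of each of these genes, LHX2 (adjusted p = 0.00918) and FGF8 (adjusted p = 0.0112) passed. Over all fits that left out 1 library, the adjusted p reached 0.203 for LHX2 and 0.197 for FGF8.

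Outside the list, a pair of lower genes moved in the same libraries. MECOM, a zinc-finger transcription factor, was at 0.89, 1.54, 0.824, 4.52 and 0.566 CPM in U0126 posterior blastemas and 23.8, 30.1, 12.2, 16.6 and 14.5 CPM in anterior blastemas. No library overlapped, and MECOM had a log2 fold change of −3.54 ± 0.56 (adjusted p = 0.0115; 0.0106 without replicate 5). MECOM was at 2.2 to 7.97 CPM in untreated posterior blastemas. CORO2B, an actin-binding coronin, was at 0.514 to 5.16 CPM against 5.79 to 13.6 CPM in anterior blastemas, with replicate 4 at 5.16 CPM the highest treated library. In untreated posterior blastemas CORO2B was at 2.97 to 6.84 CPM. Its log2 fold change was −2.46 ± 0.53 (adjusted p = 0.0402; 0.0391 without U0126 posterior replicate 5), and the call ended without U0126 posterior replicate 1, 2 or 3 or anterior replicate 1, 2, 4 or 5 (adjusted p = 0.0742 to 0.119). Counts in the 16 measured genes that mark mesenchyme, the tissue that expresses limb regulators, made up 0.113% to 0.50% of U0126 posterior and 0.369% to 0.819% of anterior libraries. The part of this in the fall of the anterior regulators was not tested.

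**Figure D2:**
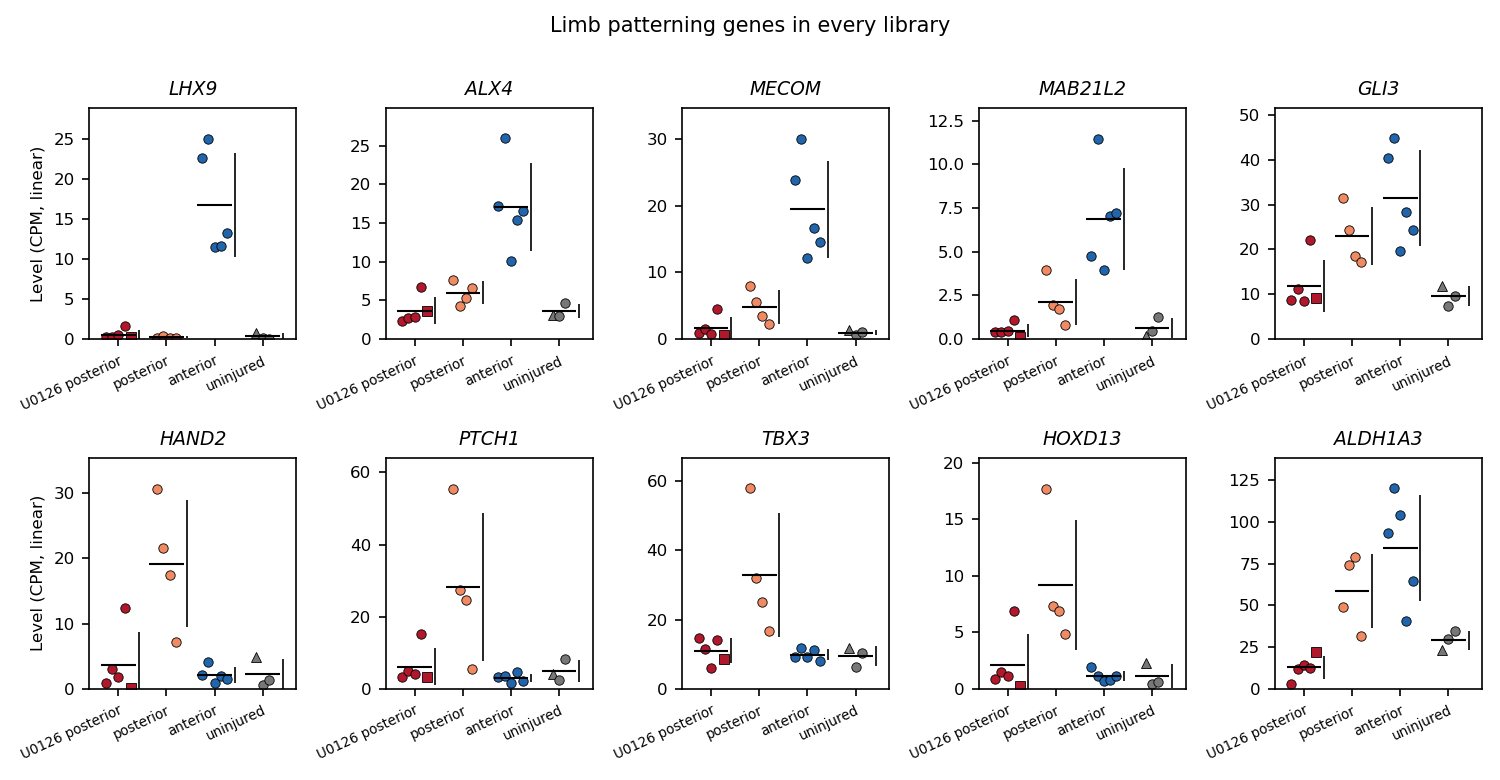
Level in CPM on a linear axis from 0 of 10 patterning genes in every library, by group: U0126 posterior (red, with replicate 5 as a square), posterior (orange), anterior (blue) and uninjured (grey, with replicate 1 as a triangle). Horizontal lines are group means and vertical lines 1 SD on either side, ended at 0; LHX9, ALX4, MECOM, MAB21L2 and ALDH1A3 show no overlap between U0126 posterior and anterior blastemas, while GLI3, HAND2, PTCH1, TBX3 and HOXD13 do.

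No listed gene of the posterior limb passed the test between U0126 posterior and anterior blastemas. None of 13 tested posterior patterning genes, 13 hedgehog pathway genes and 7 distal HOX genes passed in either direction (median log2 fold changes −0.34, −0.21 and −0.38). None passed without replicate 5 either. Of all genes tested, 1.18% passed, and 2.22% without replicate 5, so the absence of calls in lists this short is close to the share over all genes. SHH was read 63 times in the U0126 posterior libraries together, with 51 of the reads in replicate 4, and 2 times in the anterior libraries together. The untreated posterior libraries held 560 SHH reads and the uninjured ones 41. Per scaled total, U0126 posterior libraries had 35.8 times the SHH reads of the anterior ones (95% interval 9.51 to 302, exact binomial, counting error only), and 4 of the 5 treated libraries had 8 reads or fewer. HAND2, a transcription factor upstream of SHH, was at 0.843, 3.08, 1.87, 12.4 and 0.0771 CPM in U0126 posterior and 2.06, 4.15, 0.931, 1.97 and 1.5 CPM in anterior blastemas. Replicate 4 was far above the anterior range and replicate 5 below it, while the other treated libraries lay within or close to it. Its log2 fold change was 0.78 ± 0.86 (adjusted p = 0.705; 0.452 without U0126 posterior replicate 5), and without replicate 4 it was −0.53. In untreated posterior blastemas HAND2 was at 30.6, 21.6, 17.4 and 7.15 CPM.

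PTCH1, the hedgehog receptor and a target of the pathway, was at 3.19, 4.87, 4.01, 15.2 and 3.29 CPM in U0126 posterior and 3.39, 3.51, 1.5, 4.55 and 2.23 CPM in anterior blastemas. Apart from replicate 4, which stood far above, the treated and anterior libraries overlapped (log2 fold change 1.01 ± 0.57, adjusted p = 0.396; 0.317 without U0126 posterior replicate 5), and untreated posterior libraries were at 5.58 to 55.5 CPM. The pathway's transcription factors had log2 fold changes of 1.02 ± 0.53 for GLI1 (adjusted p = 0.349; 0.337 without U0126 posterior replicate 5) and −1.46 ± 0.50 for GLI2 (adjusted p = 0.148; 0.202 without U0126 posterior replicate 5). DISP1, which releases the ligand from the cells that make it, had one of −0.89 ± 0.22 (adjusted p = 0.0633; 0.0851 without U0126 posterior replicate 5, 0.0172 without U0126 posterior replicate 4). The T-box factor TBX3, of the posterior limb margin, was at 6.07 to 14.6 CPM against 7.99 to 11.7 CPM in anterior blastemas (log2 fold change 0.15 ± 0.31, adjusted p = 0.864; 0.764 without U0126 posterior replicate 5), with untreated posterior libraries at 16.6 to 58.1 CPM. Its relative TBX2 had a log2 fold change of −0.94 ± 0.45 (adjusted p = 0.311; 0.402 without U0126 posterior replicate 5).

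HOX genes, which mark position along the limb, gave a mixed picture. HOXD13, of the distal and posterior limb, was at 0.867, 1.52, 1.15, 6.87 and 0.231 CPM in U0126 posterior and 1.9, 1.16, 0.703, 0.762 and 1.15 CPM in anterior blastemas. Only replicate 4 lay above the anterior range (log2 fold change 0.90 ± 0.72, adjusted p = 0.572; 0.348 without U0126 posterior replicate 5, and log2 fold change −0.26 without replicate 4). HOXA11, of the forearm segment, was at 0.0514 to 8.16 CPM against 0.798 to 3.2 CPM in anterior blastemas, with a log2 fold change of 0.75 ± 0.79 (adjusted p = 0.691; 0.393 without U0126 posterior replicate 5, and log2 fold change −0.30 without replicate 4). HOXA13, of the hand, had one of 1.48 ± 0.71 (adjusted p = 0.302; 0.128 without U0126 posterior replicate 5). HOXD9 was at 0.82 to 5.69 CPM in U0126 posterior and 4.16 to 9.74 CPM in anterior blastemas (log2 fold change −1.60 ± 0.56, adjusted p = 0.162; 0.219 without U0126 posterior replicate 5), and passed as lower without U0126 posterior replicate 4 (adjusted p = 0.0278). A p above the threshold does not show that these levels were alike.

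Among 13 proximal limb genes 1 fell, with and without U0126 posterior replicate 5 (0.619% and 1.01% of all genes). The T-box factor TBX18 was at 0.304, 0.738, 0.868, 1.34 and 0.334 CPM under U0126, against 3.37, 6.9, 1.37, 4.5 and 2.72 CPM in anterior blastemas. The highest treated and the lowest anterior library nearly met without overlapping. TBX18 had a log2 fold change of −2.39 ± 0.51 (adjusted p = 0.0385; 0.0443 without replicate 5), and the adjusted p was 0.0653 to 0.119 without U0126 posterior replicate 1, 2 or 3 or anterior replicate 1, 2, 4 or 5. SHOX, a homeodomain regulator of long bone growth, was at 7.69 to 40.4 CPM against 27 to 98.1 CPM in anterior blastemas (log2 fold change −1.72 ± 0.44, adjusted p = 0.067; 0.0744 without U0126 posterior replicate 5). It passed without U0126 posterior replicate 4 (adjusted p = 0.0208) or without anterior replicate 3 (adjusted p = 0.0421). Its relative SHOX2 had a log2 fold change of 0.33 ± 0.50 (adjusted p = 0.80; 0.598 without U0126 posterior replicate 5, and log2 fold change −0.20 without replicate 4). The homeodomain factors MEIS1 and MEIS2, which mark the upper arm, were at 24.5 to 52.5 and 22 to 35.1 CPM in U0126 posterior blastemas, against 30.3 to 46.2 and 29.1 to 61.3 CPM in anterior blastemas. Neither passed (adjusted p = 0.556 for MEIS1 and 0.0863 for MEIS2; 0.104 and 0.0706 without U0126 posterior replicate 5), and MEIS2 did without U0126 posterior replicate 4 (adjusted p = 0.0431). TBX5 had a log2 fold change of −1.43 ± 0.48 (adjusted p = 0.138; 0.181 without U0126 posterior replicate 5, 0.00776 without replicate 4).

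Retinoic acid, made from retinal by ALDH1A enzymes and broken down by CYP26 enzymes, sets proximal identity in regenerating limbs. Of 16 tested genes of its metabolism and reception, 1 fell and none rose (0.619% and 0.562% of all genes), and 3 fell without U0126 posterior replicate 5 (1.01% of all genes). ALDH1A3 was at 3.19, 11.7, 14.5, 12.7 and 22.1 CPM in U0126 posterior and 93.7, 120.2, 104, 41 and 64.5 CPM in anterior blastemas. Every treated library was lower than every anterior one, and replicate 5 was the highest of the treated ones. Its log2 fold change was −2.72 ± 0.43 (adjusted p = 0.0115; 0.00575 without replicate 5). Untreated posterior blastemas were at 31.8 to 79 CPM and uninjured limbs at 23.1 to 34.6 CPM, both above all treated libraries, without a test here. The closest were uninjured replicate 1 (23.1 CPM) and U0126 posterior replicate 5 (22.1 CPM), the 2 libraries that stood apart from their groups. The enzyme ALDH1A2 had a log2 fold change of 1.03 ± 0.60 (adjusted p = 0.413; 0.252 without U0126 posterior replicate 5). The receptor gene RARG was at 89, 72.7, 72.2, 82.5 and 127 CPM in treated and 137, 133, 119, 114 and 151 CPM in anterior libraries. It did not pass with replicate 5 (adjusted p = 0.0696) and was lower without it (log2 fold change −0.73 ± 0.11, adjusted p = 0.00666). The same held for DHRS3, which returns retinal to retinol (adjusted p = 0.288 with and 0.0396 without replicate 5). The receptor gene RARB, itself a target of retinoic acid, had 19 reads in U0126 posterior and 98 in anterior libraries (adjusted p = 0.0974; 0.0881 without U0126 posterior replicate 5). CYP26A1 and CYP26B1 had log2 fold changes of −1.31 ± 0.82 and −0.50 ± 0.48 (adjusted p = 0.446 and 0.649; 0.484 and 0.629 without U0126 posterior replicate 5).

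The drug's target pathway was read through genes that active ERK is known to raise. Of 22 tested, 1 fell (0.619% of all genes) and none rose. DUSP6, ETV5 and SPRED3, also among the 25 genes listed, were not analysed here. A log2 fold change below 0 was seen in 19 of the 22 and in 9073 of all 19398 genes, with a list median of −0.81 against 0.02 over all genes. Without replicate 5 the median was −0.73 and the call was the same. DUSP7, a phosphatase that switches ERK off, was at 37.5, 22.3, 25.5, 35.3 and 32.6 CPM in U0126 posterior blastemas and 63.1, 60.7, 43.4, 49 and 54.3 CPM in anterior blastemas. Its groups did not overlap, and its log2 fold change was −0.82 ± 0.14 (adjusted p = 0.0147; 0.0154 without replicate 5). The adjusted p was 0.0502 to 0.0573 without U0126 posterior replicate 3 or anterior replicate 1 or 2. Untreated posterior blastemas were at 46.3 to 57.1 CPM. SPRY4, a sprouty inhibitor of receptor tyrosine kinase signalling, was at 3.93, 2.72, 4.9, 7.57 and 3.14 CPM under U0126 and 9.62, 10.4, 9.19, 10.7 and 9.26 CPM in anterior blastemas. All treated libraries lay below all anterior ones, but the adjusted p was 0.0588 (log2 fold change −1.14 ± 0.28), 0.0797 without U0126 posterior replicate 5 and 0.0098 without replicate 4. SPRY4 was at 5.85 to 10.0 CPM in untreated posterior blastemas.

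The other readouts of ERK varied. SPRY2 was at 4.78 to 9.92 CPM in U0126 posterior and 7.29 to 15.5 CPM in anterior blastemas (log2 fold change −0.49 ± 0.27, adjusted p = 0.382; 0.419 without U0126 posterior replicate 5). SPRED1, of a related inhibitor family, had a log2 fold change of −0.40 ± 0.12 (adjusted p = 0.0981; 0.124 without U0126 posterior replicate 5, 0.0337 without U0126 posterior replicate 4). The ETS factors ETV1 and ETV4, which FGF signalling switches on, were at 1.52 to 4.2 and 7.77 to 30.9 CPM in U0126 posterior blastemas, against 3.44 to 7.97 and 26 to 44.4 CPM in anterior blastemas (adjusted p = 0.17 and 0.193; 0.229 and 0.25 without U0126 posterior replicate 5). EPHA2, an ephrin receptor, had no overlap between its groups (log2 fold change −1.02 ± 0.37, adjusted p = 0.175; 0.234 without U0126 posterior replicate 5), and PHLDA1 had a log2 fold change of −0.85 ± 0.34 (adjusted p = 0.211; 0.281 without U0126 posterior replicate 5). Of 22 immediate early genes and 15 FGF ligands, receptors and binding proteins, none passed in either direction, where 1.18% of all genes did (median log2 fold changes 0.07 and 0.04).

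**Figure D3:**
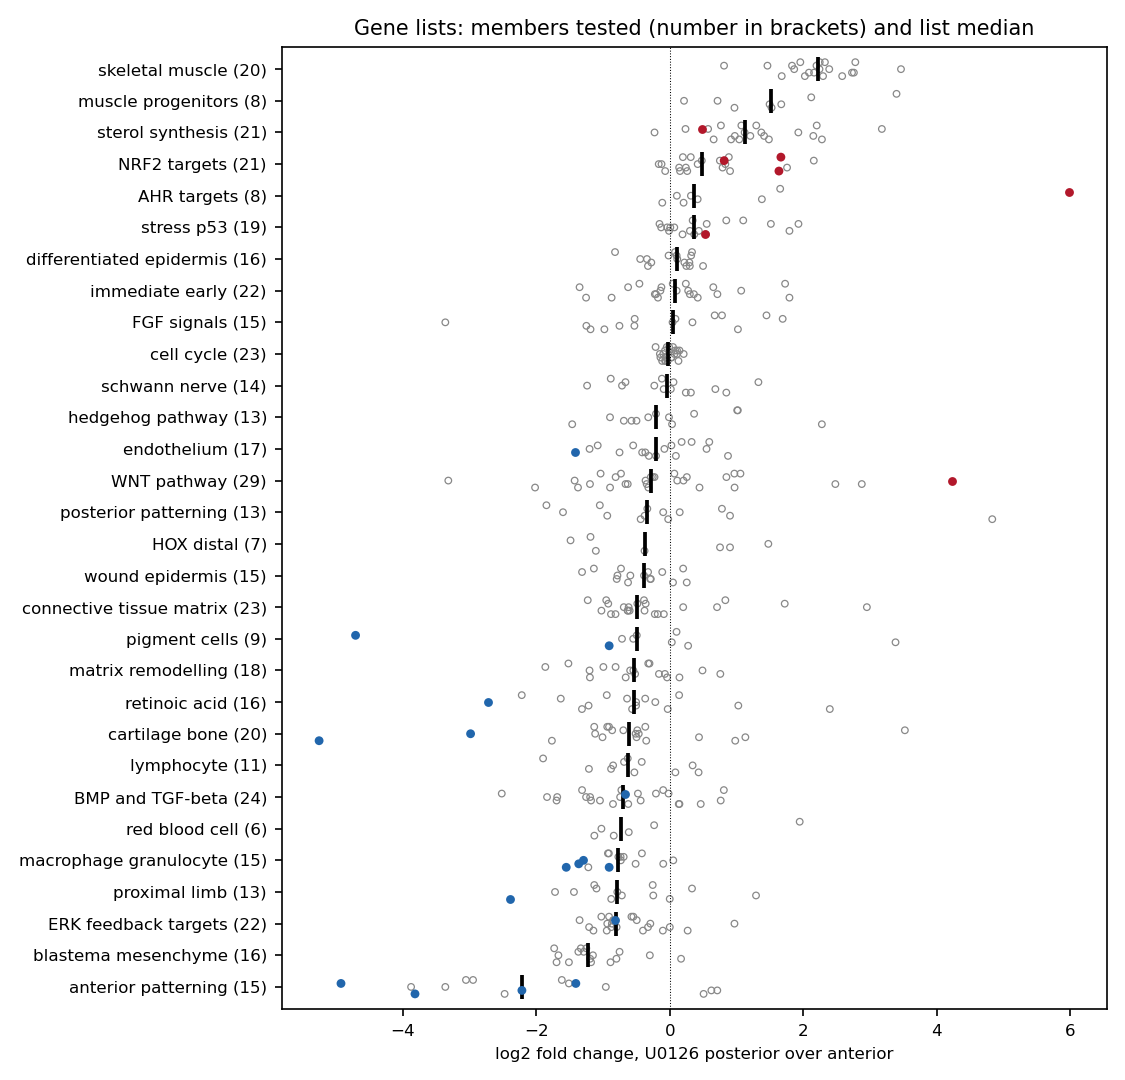
Log2 fold change of U0126 posterior over anterior blastemas (horizontal) for each tested member of 30 gene lists (rows, with the number of members tested), with list medians as black bars. Filled points had an adjusted p under 0.05 in edgeR (red higher, blue lower) and open points did not; the anterior patterning list lies lowest with a median of −2.21 and the skeletal muscle list highest with a median of 2.22 and no call.

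Mesenchymal genes of the blastema had fold changes below 0 in 15 of 16 members (median −1.22), and none passed (1.18% of all genes did). PRRX1 and PRRX2, homeobox genes of limb mesenchyme, were at 1.0 to 21.2 and 10.5 to 81 CPM in U0126 posterior blastemas, against 10.9 to 31.5 and 51.3 to 148 CPM in anterior blastemas. Their log2 fold changes were −1.37 ± 0.64 (adjusted p = 0.287; 0.327 without U0126 posterior replicate 5) and −1.73 ± 0.56 (adjusted p = 0.132; 0.175 without U0126 posterior replicate 5). TNC, a matrix glycoprotein of the blastema, was at 677, 508, 444, 1135 and 102 CPM in U0126 posterior and 1658, 1949, 920.1, 1222 and 1249.7 CPM in anterior blastemas. Replicate 5 lay furthest below the anterior range and replicate 4 lay within it (adjusted p = 0.366; 0.444 without U0126 posterior replicate 5). In the uninjured libraries TNC was at 1329, 71.6 and 78.4 CPM. PDGFRA, a growth factor receptor of fibroblasts, had a log2 fold change of −1.15 ± 0.30 (adjusted p = 0.0693; 0.0918 without U0126 posterior replicate 5), and the secreted protein gene FSTL1 one of −1.18 ± 0.31 (adjusted p = 0.0743; 0.105 without U0126 posterior replicate 5). Without U0126 posterior replicate 4 the adjusted p was 0.0494 for PRRX1, 0.0102 for PRRX2, 0.0225 for PDGFRA and 0.00918 for FSTL1, and without anterior replicate 3 it was 0.035 for PDGFRA. Over all fits that left out 1 library, the adjusted p of these genes reached 0.535, 0.305, 0.185 and 0.203, in the same order. SNAI2, a transcription factor of mesenchymal cells, was at 42.1, 36.6, 35.7, 46.5 and 97.7 CPM in treated and 71.2, 60.1, 76.5, 58.1 and 51.9 CPM in anterior libraries. Replicate 5 was the highest of all 10, and without it SNAI2 was lower (log2 fold change −0.66 ± 0.15, adjusted p = 0.0414, against 0.591 with it).

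Among secreted signals, BMP7, a bone morphogenetic protein, was at 14.8, 14.8, 16.2, 16.8 and 18.9 CPM in U0126 posterior and 28.4, 25.6, 18.6, 29 and 27.9 CPM in anterior blastemas. Anterior replicate 3 lay within the treated range and the other anterior libraries above it. BMP7 had a log2 fold change of −0.67 ± 0.15 (adjusted p = 0.0478; 0.0344 without replicate 5), the 1 call among 24 BMP and TGF-beta genes (0.619% of all genes were lower). GDF5, a signal of forming joints, had 22 reads in U0126 posterior and 147 in anterior libraries (adjusted p = 0.0614; 0.0509 without replicate 5). LGR5, a receptor that strengthens WNT signalling, was the 1 call among 29 WNT pathway genes and was higher, against 0.562% of all genes. It had 132 reads in U0126 posterior and 7 in anterior libraries, 21.4 times as many per scaled total (95% interval 10.1 to 54.4, counting error only). Its levels were 0.164, 1.12, 0.434, 0.904 and 0.386 CPM against 0.0184, 0.0181, 0.019, 0.0738 and 0.0234 CPM in anterior blastemas, without overlap (adjusted p = 0.0281; 0.0207 without replicate 5), and 0.218 to 2.34 CPM in untreated posterior blastemas. The WNT receptor gene FZD7 had a log2 fold change of −2.02 ± 0.48 (adjusted p = 0.0531; 0.0586 without U0126 posterior replicate 5), and passed as lower without U0126 posterior replicate 4 (adjusted p = 0.00918) or anterior replicate 3 (adjusted p = 0.045). The call of BMP7 ended without U0126 posterior replicate 1, 2 or 3 or anterior replicate 1, 2, 4 or 5 (adjusted p = 0.0927 to 0.123). That of LGR5 ended without U0126 posterior replicate 2 or 3 or anterior replicate 1, 2 or 5 (adjusted p = 0.056 to 0.0978).

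Of 20 cartilage and bone genes, 2 were lower and none higher (0.619% and 0.562% of all genes), and the same 2 were lower without U0126 posterior replicate 5 (1.01% of all genes). The list median was −0.60, with 16 log2 fold changes below 0 and 4 above. COMP, among those above 0, averaged 22.1 CPM in U0126 posterior and 1.94 CPM in anterior blastemas. It did not pass (log2 fold change 3.52 ± 1.38, adjusted p = 0.206; 0.181 without U0126 posterior replicate 5). MATN4, a matrilin of cartilage matrix, was at 0.468, 0.316, 0.174, 1.47 and 0.309 CPM in U0126 posterior blastemas, against 3.66, 8.35, 2.34, 3.81 and 3.47 CPM in anterior blastemas. No library overlapped, and the log2 fold change was −2.98 ± 0.59 (adjusted p = 0.0302; 0.0373 without replicate 5). IBSP, the bone sialoprotein gene, had 2 reads in the U0126 posterior libraries together and 120 in the anterior libraries, 61 of them in 1 library. Per scaled total its ratio of U0126 posterior over anterior was 0.0189 (95% interval 0.00227 to 0.0699, counting error only), and anterior replicate 5 had none (adjusted p = 0.049; 0.048 without replicate 5). Leaving out U0126 posterior replicate 1, 2 or 3 or anterior replicate 1, 2 or 4 ended both calls, and so did anterior replicate 5 for MATN4 and anterior replicate 3 for IBSP (adjusted p = 0.0532 to 0.0978 for MATN4 and 0.0564 to 0.145 for IBSP). None of 23 connective tissue matrix genes or 18 matrix remodelling genes passed, where 1.18% of all genes did (median log2 fold changes −0.48 and −0.53).

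Genes that mark macrophages were among those lower in U0126 posterior than in anterior blastemas. Of 15 tested macrophage and granulocyte genes, 4 fell (0.619% of all genes) and none rose. Of the 15, 14 had a log2 fold change below 0, and the list median was −0.77, against 0.02 over all genes. The same 4 fell without U0126 posterior replicate 5. C1QA, C1QB and C1QC encode the chains of complement C1q, which macrophages make. C1QA was at 26.3, 17.5, 24.1, 44.9 and 29 CPM in U0126 posterior and 98.5, 99.4, 66.4, 81.9 and 68.9 CPM in anterior blastemas. C1QB was at 47.3, 33.2, 36.9, 58.4 and 62.3 CPM under U0126 and 149, 143, 103, 113 and 106 CPM in anterior blastemas. C1QC was at 98.5, 67.9, 88.2, 138 and 116 CPM against 284, 319, 200.1, 236 and 206 CPM in anterior blastemas. For each gene all treated libraries, replicate 5 included, lay below all anterior ones. The log2 fold changes were −1.55 ± 0.26 for C1QA, −1.36 ± 0.22 for C1QB and −1.29 ± 0.21 for C1QC (adjusted p = 0.0133, 0.0129 and 0.0129; 0.0159, 0.00743 and 0.012 without replicate 5). CSF1R, the receptor for the macrophage growth factor, was at 38.2 to 60.6 CPM in U0126 posterior and 80.7 to 114 CPM in anterior blastemas without overlap. Its log2 fold change was −0.91 ± 0.19 (adjusted p = 0.0384; 0.0277 without U0126 posterior replicate 5), and the call ended without U0126 posterior replicate 1, 2 or 3 or anterior replicate 1, 2, 4 or 5 (adjusted p = 0.0691 to 0.106). In untreated posterior blastemas C1QA was at 55.8 to 97.5 CPM, overlapping the anterior range.

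The share of each library's counts that fell in the 15 macrophage and granulocyte genes was 0.0868% ± 0.0186 (SD, n = 5) in U0126 posterior and 0.169% ± 0.0548 (SD, n = 5) in anterior blastemas. The highest treated library, at 0.111%, lay below the lowest anterior one, at 0.115%. An exact two-sided permutation test gave p = 0.00794, the smallest that 5 against 5 libraries allow, and 0.0635 after adjustment over 12 cell type lists. The share in the 16 mesenchyme genes was 0.260% ± 0.144 in U0126 posterior and 0.594% ± 0.166 in anterior blastemas (SD, n = 5 each; exact permutation p = 0.0159, adjusted 0.0635). The share in 10 pigment cell genes was 0.0151% ± 0.00183 against 0.0218% ± 0.00302 in anterior blastemas (SD, n = 5 each; exact permutation p = 0.0159, adjusted 0.0635). None of the 12 lists passed after adjustment with all libraries or without U0126 posterior replicate 5. Without anterior replicate 3, the macrophage and granulocyte share and the pigment cell share passed (exact permutation test, adjusted p = 0.0476 for each). Wound epidermis genes took 0.122% to 0.152% of the counts of U0126 posterior replicates 1 to 4, 0.251% in replicate 5 and 0.175% to 0.269% in anterior libraries.

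CSF1R, also in the pigment cell list, averaged 51.5 CPM in U0126 posterior and 96.5 CPM in anterior blastemas, the widest gap in CPM of the 9 pigment genes tested. The fold changes of the pigment genes went both ways, with 5 below 0 and 4 above. DCT, a melanin enzyme gene, had a log2 fold change of 3.38 ± 0.91 at low levels (0.156 CPM on average in U0126 posterior and 0.0133 CPM in anterior blastemas) and did not pass (adjusted p = 0.0758; 0.0701 without U0126 posterior replicate 5). PMEL, MLANA and PNP had log2 fold changes of 0.28, 0.10 and 0.03 and did not pass. TYRP1, another melanin enzyme gene, was called as lower on few reads, 4 in U0126 posterior and 143 in anterior libraries (adjusted p = 0.0481; 0.0571 without replicate 5). FLI1, an ETS factor of endothelium and blood, was at 2.58, 6.13, 5.62, 7.57 and 4.91 CPM in treated and 13.9, 17.5, 7.58, 16 and 16.9 CPM in anterior libraries. The highest treated and the lowest anterior library nearly met, and FLI1 was the 1 call among 17 endothelial genes (0.619% of all genes were lower), as it was without U0126 posterior replicate 5 (log2 fold change −1.42 ± 0.26, adjusted p = 0.0238; 0.0273 without U0126 posterior replicate 5). The endothelial genes went both ways, with 10 log2 fold changes below 0, 7 above and a median of −0.21. Without U0126 posterior replicate 1, 2 or 3 or anterior replicate 1, 2, 4 or 5 the adjusted p of TYRP1 was up to 0.135 (0.0571 without U0126 posterior replicate 5). That of FLI1 was 0.0519 to 0.0829 without U0126 posterior replicate 2 or 3 or anterior replicate 1, 2, 4 or 5. No gene passed among 11 lymphocyte, 14 Schwann cell and nerve, 6 red blood cell, 15 wound epidermis and 16 differentiated epidermis genes (1.18% of all genes did). Among other lower genes, SLA2, a Src-like adaptor protein, was at 11.4, 10.7, 15.3, 8.82 and 22.3 CPM in U0126 posterior and 61.2, 49.7, 49.4, 47.8 and 67 CPM in anterior blastemas. Its groups lay far apart (log2 fold change −2.01 ± 0.30, adjusted p = 0.0111; 0.00273 without replicate 5), and untreated posterior blastemas were at 12.7 to 38.2 CPM. INKA1, an inhibitor of the kinase PAK4, was at 4.31 to 7.84 CPM against 15.5 to 30.7 CPM in anterior blastemas (log2 fold change −1.64 ± 0.25, adjusted p = 0.0115; 0.0123 without U0126 posterior replicate 5). TGM2, a transglutaminase that cross-links proteins, was at 5.25 to 15.3 CPM against 21.4 to 46.2 CPM in anterior blastemas (log2 fold change −1.81 ± 0.35, adjusted p = 0.0297; 0.0106 without U0126 posterior replicate 5), and lost the call without U0126 posterior replicate 1, 2 or 3 or anterior replicate 1, 2 or 4 (adjusted p = 0.0557 to 0.0908). MASP1, a serine protease of the complement system, passed as lower without replicate 5 (adjusted p = 0.0376, against 0.0534 with it) and without U0126 posterior replicate 4 (adjusted p = 0.0283).

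**Figure D4:**
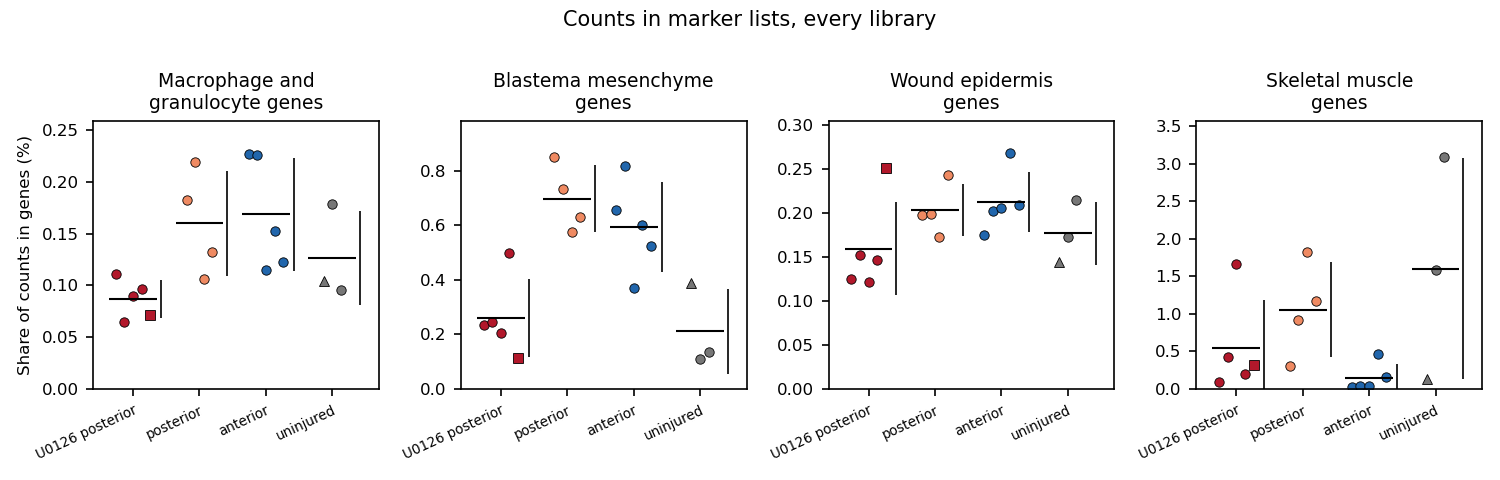
Share of each library's counts in genes (percent, axis from 0) that fell in 4 marker lists, by group, with the marks and colours used for the patterning genes. U0126 posterior libraries lie between 0.0651% and 0.111% for macrophage and granulocyte genes, below all anterior libraries, while the skeletal muscle shares of the groups overlap.

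Skeletal muscle genes had log2 fold changes above 0 in all 20 members tested (median 2.22), and none passed (1.18% of all genes did). The other 9 of the 29 listed were not analysed here. Their share of counts was 0.0933%, 0.429%, 1.66%, 0.192% and 0.322% in U0126 posterior replicates 1 to 5 and 0.0307%, 0.0431%, 0.0345%, 0.464% and 0.160% in anterior replicates 1 to 5. The groups overlapped, with treated replicate 3 and anterior replicate 4 the highest of their groups (exact permutation p = 0.159, adjusted 0.272). The muscle progenitor genes likewise had 8 of 8 fold changes above 0 and no call. CA3 and TECRL, known from muscle, were among the called genes. CA3, the carbonic anhydrase of muscle, was at 0.586, 9.95, 9.28, 0.855 and 16.4 CPM in U0126 posterior and 0, 0, 0.057, 0.418 and 0.0234 CPM in anterior blastemas (adjusted p = 0.0488; 0.053 without replicate 5). TECRL, a reductase-like gene of heart muscle, was at 1.83, 5.97, 9.78, 0.806 and 2.11 CPM against 0, 0.0543, 0.038, 0.172 and 0.375 CPM in anterior blastemas (adjusted p = 0.047; 0.0375 without replicate 5). Both were low in the anterior libraries, with 21 and 28 reads in all. Uninjured replicates 2 and 3 were at 12.4 and 44.5 CPM for CA3 and at 9.94 and 13.8 CPM for TECRL. The call of CA3 ended without any 1 library other than U0126 posterior replicate 4, and that of TECRL without any other than U0126 posterior replicates 4 and 5 (adjusted p = 0.053 to 0.147 and 0.0653 to 0.147). Among treated libraries TECRL was highest in replicate 3, followed by 2 and 5, the order of the muscle share. Replicates 1 and 4 ranked in opposite orders (TECRL 1.83 and 0.806 CPM, muscle share 0.0933% and 0.192%). Among anterior ones TECRL was highest in replicate 5 and the share in replicate 4. CA3 was highest in treated replicate 5 and in anterior replicate 4. Muscle content as a part of these differences was not tested. The 23 cell cycle genes had a median log2 fold change of −0.03 and no call (1.18% of all genes were called).

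Some genes of the oxidative stress response were higher in U0126 posterior blastemas. The transcription factor NRF2 switches on such genes when electrophiles or oxidants reach a cell, and among its targets are enzymes of the pentose phosphate pathway, which supplies NADPH. Of 21 tested NRF2 targets, 3 rose and none fell (0.562% of all genes rose), and 6 rose without replicate 5 (1.21%). The list median was 0.48, against 0.02 over all genes, with 18 log2 fold changes above 0 and 3 below. Among the targets that did not pass, NQO1 had a log2 fold change of 0.42 (adjusted p = 0.537; 0.161 without replicate 5). HMOX1 had one of −0.07 (adjusted p = 0.976; 0.888 without replicate 5). PIR, which encodes pirin, was at 119.9, 107, 134, 81.7 and 60.4 CPM in U0126 posterior and 30.9, 22.2, 39.2, 31.2 and 38.4 CPM in anterior blastemas. Every treated library exceeded every anterior one, and replicate 5 was the lowest of them. For PIR the log2 fold change was 1.64 ± 0.22 (adjusted p = 0.00588; 0.000605 without replicate 5), and untreated posterior blastemas were at 19.2 to 29.9 CPM and uninjured limbs at 57.5 to 81.3 CPM. TKT, the transketolase, was at 942, 1706, 954, 602 and 565 CPM under U0126 and 295, 177, 423, 327 and 282 CPM in anterior blastemas, with no overlap (log2 fold change 1.67 ± 0.35, adjusted p = 0.0385; 0.0214 without replicate 5). TALDO1, the transaldolase of the same pathway, was at 536 to 764 CPM against 305 to 450.5 CPM in anterior blastemas (log2 fold change 0.82 ± 0.16, adjusted p = 0.0281; 0.0161 without U0126 posterior replicate 5). Leaving out U0126 posterior replicate 1, 2 or 3 or anterior replicate 1, 2, 4 or 5 ended the calls of TKT (adjusted p = 0.0748 to 0.119) and TALDO1 (adjusted p = 0.0532 to 0.0905).

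Without replicate 5 further enzymes of this group passed as higher. GCLM, a subunit of the enzyme that starts glutathione synthesis, was at 33.2 to 58.8 CPM in U0126 posterior replicates 1 to 4, 26.3 CPM in replicate 5 and 22.9 to 26 CPM in anterior blastemas. Its log2 fold change without replicate 5 was 0.88 ± 0.16 (adjusted p = 0.0159, against 0.0576 with it). PGD, a dehydrogenase of the pentose phosphate pathway, had a log2 fold change of 1.01 ± 0.22 without replicate 5 (adjusted p = 0.0306, against 0.0681 with it). SQSTM1, the autophagy receptor p62 and an NRF2 target outside the list, was at 479, 203, 243, 140.3 and 67.1 CPM in treated and 65.7, 69.3, 58, 74.2 and 61.9 CPM in anterior libraries. Replicate 5 lay within the anterior range and the other 4 above it (log2 fold change 1.78 ± 0.39, adjusted p = 0.0407; 0.00666 without replicate 5). The call of SQSTM1 ended without U0126 posterior replicate 1, 2 or 3 or any anterior replicate (adjusted p = 0.0596 to 0.119). GCLM and PGD also passed without U0126 posterior replicate 4 (adjusted p = 0.0287 and 0.0391).

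Other genes higher in U0126 posterior blastemas were of several kinds. LONRF1, a RING finger protein with a LON protease-like domain, was at 46.3, 29.2, 73.3, 41.6 and 14 CPM in U0126 posterior and 8.52, 6.21, 7.39, 9.32 and 9.0 CPM in anterior blastemas. ABCB6, a transporter of porphyrins, was at 61.7, 51.2, 70.7, 51.6 and 21.8 CPM under U0126 and 13.7, 11.5, 16, 13.2 and 13.8 CPM in anterior blastemas. In both, replicates 1 to 4 lay far above the anterior range and replicate 5 lay closer to it, still above. The log2 fold changes were 2.34 ± 0.31 for LONRF1 (adjusted p = 0.00588; 5.68e-05 without replicate 5) and 1.91 ± 0.25 for ABCB6 (adjusted p = 0.00588; 4.54e-05 without replicate 5). Untreated posterior blastemas were at 8.71 to 13.4 CPM for LONRF1 and 11.9 to 20.5 CPM for ABCB6, and uninjured limbs were at 21.8 to 23.5 CPM for LONRF1 and 28.7 to 44.3 CPM for ABCB6. DHRS12, a short-chain dehydrogenase, was at 64, 33.9, 102, 66.8 and 8.49 CPM in treated and 10.9, 8.94, 9.19, 11.4 and 9.07 CPM in anterior libraries, so that replicate 5 alone lay below the anterior range. The log2 fold change of DHRS12 was 2.48 ± 0.52 (adjusted p = 0.0369), and 2.75 ± 0.39 without replicate 5 (adjusted p = 0.00466). WDR76, a WD repeat protein, and PRXL2B, a peroxiredoxin-like protein, were likewise far above the anterior range in replicates 1 to 4 and not in replicate 5. WDR76 was at 26.6 to 66 CPM in U0126 posterior replicates 1 to 4, 6.97 CPM in replicate 5 and 4.58 to 7.03 CPM in anterior blastemas (adjusted p = 0.0302; 0.00464 without replicate 5). PRXL2B was at 28.6 to 60.6 CPM in replicates 1 to 4, 6.71 CPM in replicate 5 and 6.75 to 9.86 CPM in anterior blastemas (adjusted p = 0.0302; 0.000632 without replicate 5). Leaving out U0126 posterior replicate 1, 2 or 3 or anterior replicate 1, 2, 4 or 5 ended the calls of DHRS12, WDR76 and PRXL2B, and anterior replicate 3 that of DHRS12 (adjusted p = 0.0547 to 0.119 for DHRS12 and 0.0571 to 0.104 for the others).

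Further higher genes had smaller levels or wider spreads. DBP, a transcription factor under control of the circadian clock, was at 4.0, 3.44, 5.68, 2.74 and 2.49 CPM in U0126 posterior and 0.478, 0.561, 0.931, 1.48 and 1.34 CPM in anterior blastemas (log2 fold change 1.94 ± 0.33, adjusted p = 0.0142; 0.00889 without U0126 posterior replicate 5, 0.0539 without anterior replicate 2). The groups did not overlap, and the uninjured limbs were at 2.35 to 3.44 CPM. DDAH1, which breaks down methylated arginines, was at 26.7 to 54.6 CPM against 8.6 to 17.8 CPM in anterior blastemas (log2 fold change 1.35 ± 0.24, adjusted p = 0.0175; 0.0102 without U0126 posterior replicate 5, 0.0511 to 0.0589 without U0126 posterior replicate 1 or 2 or anterior replicate 2). GK, the glycerol kinase, had a log2 fold change of 1.42 ± 0.29 (adjusted p = 0.0309; 0.0123 without U0126 posterior replicate 5). AIFM3, of the apoptosis-inducing factor family, was at 15.6, 5.02, 5.38, 4.08 and 3.63 CPM in treated and 1.38 to 2.16 CPM in anterior libraries, with treated replicate 1 well above the rest (log2 fold change 2.02 ± 0.41, adjusted p = 0.0319; 0.0176 without U0126 posterior replicate 5). Leaving out U0126 posterior replicate 1, 2 or 3 or anterior replicate 1, 2, 4 or 5 ended the calls of GK (adjusted p = 0.0522 to 0.106) and AIFM3 (adjusted p = 0.0571 to 0.106). SLC16A14, of the monocarboxylate transporter family, passed without replicate 5 (log2 fold change 2.47 ± 0.54, adjusted p = 0.0319, against 0.067 with it) and without U0126 posterior replicate 4 (adjusted p = 0.0341).

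CYP1A1, the xenobiotic-metabolising enzyme that the aryl hydrocarbon receptor (AHR) switches on, varied widely among treated libraries. It was at 3.37, 11.6, 58.2, 117 and 0.257 CPM in U0126 posterior replicates 1 to 5 and 0.46, 0.471, 0.057, 1.16 and 0.89 CPM in anterior replicates 1 to 5. Replicates 1 to 4 lay above every anterior library and replicate 5 within their range. CYP1A1 had a log2 fold change of 5.99 ± 1.37 (adjusted p = 0.0488), and 6.31 ± 1.16 without replicate 5 (adjusted p = 0.0159). The call ended without U0126 posterior replicate 1, 2 or 3 or any anterior replicate (adjusted p = 0.0686 to 0.147). It was the 1 call among 8 tested genes of the AHR list, of which 2 rose without replicate 5 (0.562% and 1.21% of all genes). Beside targets, the list holds the receptor gene AHR itself, ARNT and NFE2L2. AHRR, the repressor that the same receptor induces, was at 10.4 to 24.8 CPM in replicates 1 to 4, 4.94 CPM in replicate 5 and 2.63 to 6.53 CPM in anterior blastemas, and passed without replicate 5 (log2 fold change 1.59 ± 0.34, adjusted p = 0.028, against 0.0784 with it). CYP1B1, a further target, was at 4.78, 9.42, 21.6, 26.1 and 0.0771 CPM in U0126 posterior and 5.37, 8.65, 3.4, 0.59 and 1.62 CPM in anterior blastemas, with overlap (adjusted p = 0.368; 0.131 without U0126 posterior replicate 5).

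Sterol synthesis genes had fold changes above 0 in 20 of 21 members (median 1.12, against 0.02 over all genes). With all libraries 1 rose (0.562% of all genes), and without replicate 5 there were 9 that rose (1.21% of all genes), with a list median of 1.15. EBP, a sterol isomerase, was at 18.4, 27.3, 28.4, 22.1 and 20.9 CPM in U0126 posterior and 15.7, 17.5, 15.6, 18.1 and 17.1 CPM in anterior blastemas. Its groups were close but did not overlap (log2 fold change 0.48 ± 0.11, adjusted p = 0.0488; 0.0337 without replicate 5), and the call ended without U0126 posterior replicate 2 or 3 or any anterior replicate (adjusted p = 0.0722 to 0.132). SQLE, the squalene epoxidase, was at 5.41, 95.4, 71.4, 21.3 and 4.04 CPM in U0126 posterior and 4.14, 6.35, 2.94, 3.96 and 4.43 CPM in anterior blastemas. Replicates 2, 3 and 4 stood high, and replicates 1 and 5 lay within the anterior range (log2 fold change 3.47 ± 0.80 and adjusted p = 0.0387 without replicate 5, against 0.0782 with it). CYP51A1, a sterol demethylase, was at 14.3, 96.8, 73.8, 27.4 and 9.49 CPM under U0126 and 6.96 to 13.7 CPM in anterior blastemas, again highest in replicates 2 and 3 (adjusted p = 0.038 without and 0.0803 with replicate 5). Also among those that passed without replicate 5 were FDFT1, SC5D, LSS, MVK and HMGCS1, with log2 fold changes of 1.46, 1.30, 2.41, 2.46 and 1.57 and adjusted p of 0.0349, 0.0121, 0.0442, 0.046 and 0.0479. Without U0126 posterior replicate 4, FDFT1, SC5D and MVK passed (adjusted p = 0.0377, 0.0219 and 0.0422).

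Of 19 stress genes 1 rose (0.562% of all genes), and 3 rose without U0126 posterior replicate 5 (1.21% of all genes). MDM2, the ubiquitin ligase that holds p53 in check, was at 34.2, 51.6, 40, 41.3 and 38.7 CPM in U0126 posterior and 27.1, 29.4, 32.9, 28.2 and 25.7 CPM in anterior blastemas. The groups did not overlap, and the log2 fold change was 0.52 ± 0.12 (adjusted p = 0.0454; 0.0387 without replicate 5). The adjusted p was 0.0589 to 0.121 without U0126 posterior replicate 1, 2 or 3 or anterior replicate 1, 2, 4 or 5. DDIT3, a factor of the unfolded protein response, was at 22.5, 15.2, 21.5, 7.33 and 6.43 CPM in treated and 6.16 to 7.73 CPM in anterior libraries. HSP90AA1, the inducible heat shock protein 90, was at 38 to 99.7 CPM against 23.3 to 37.8 CPM in anterior blastemas. Both passed without replicate 5 (log2 fold changes 1.29 ± 0.28 and 0.97 ± 0.24, adjusted p = 0.0288 and 0.0478, against 0.0885 and 0.0885 with it). Both also passed without U0126 posterior replicate 4 (adjusted p = 0.0284 and 0.0337).

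**Figure D5:**
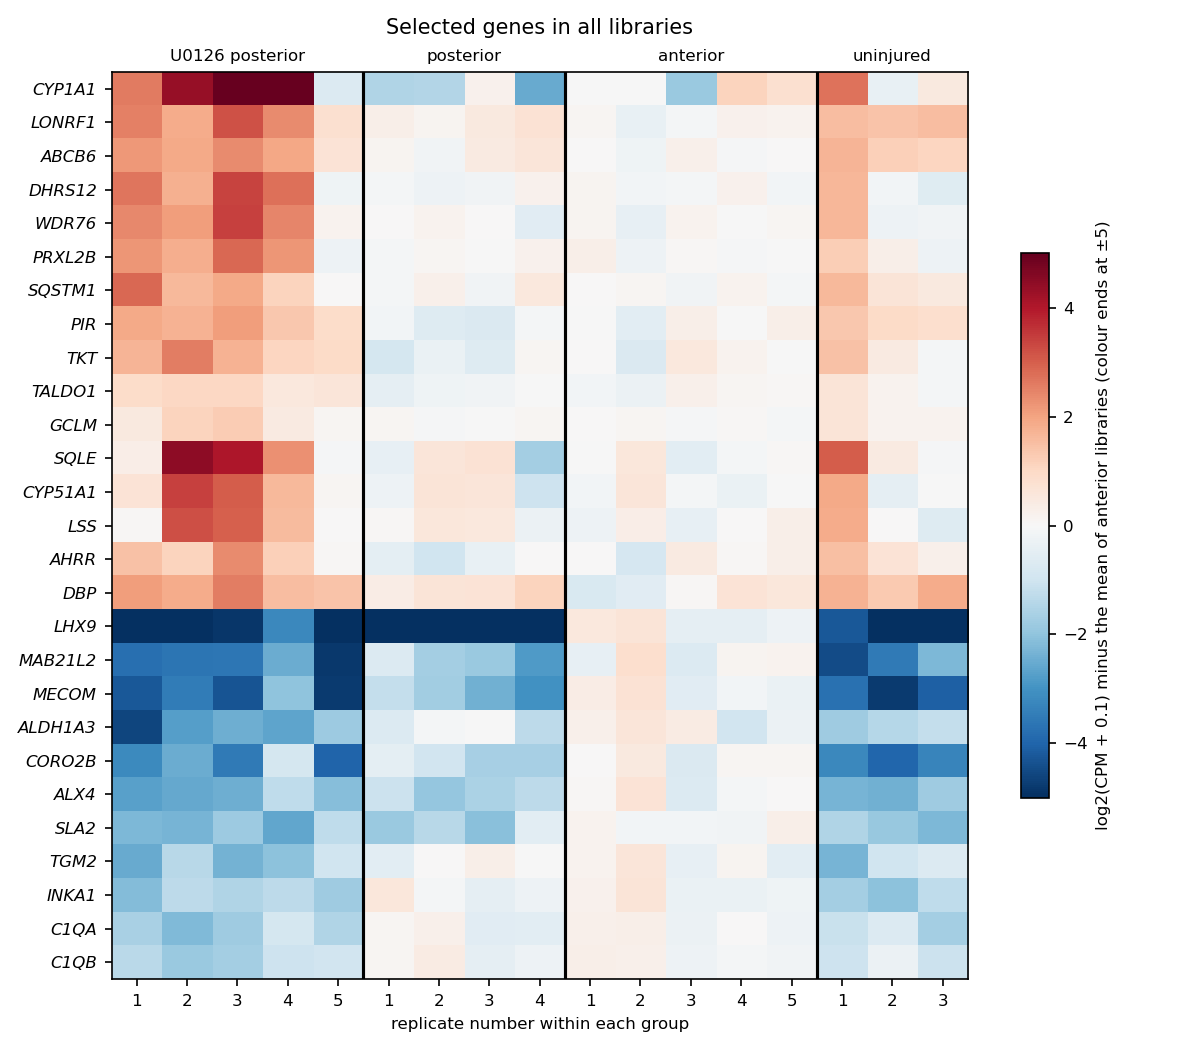
Level of selected genes (rows) in all 17 libraries (columns, by group and replicate number) as log2(CPM + 0.1) minus the mean of the anterior libraries, red above and blue below it, with colours ended at ±5. In U0126 posterior replicates 1 to 4 the upper block is mostly red, with genes such as LSS and SQLE close to white in replicate 1, and the lower block blue. Replicate 5 is pale in much of the upper block, where uninjured replicate 1 is mostly red.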

How the data were processed

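Polyadenylated RNA was sequenced in 17 libraries. Trimmomatic 0.39 and STAR 2.7.3a were run on the reads, per the submitters' processing notes, and neither genome build nor annotation is given in the sources used here. The deposited files hold raw counts of reads per gene, not normalized, in unstranded and stranded columns. The unstranded counts were used, because reads in genes favoured one strand by a ratio of only 1.90 to 2.07. Reads outside genes (15.1% to 16.4%) were left out. A RefSeq gene table (assembly UKY_AmexF1_1), used for names and neighbours, held 67154 of the 67178 IDs that are not tRNA.

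Groups came from the titles. After filterByExpr and TMM scaling (factors 0.862 to 1.08), edgeR 4.0.16 (R 4.3.3) fitted 1 robust quasi-likelihood model over all 4 groups, dropping and imputing no sample, and F tests were adjusted by Benjamini-Hochberg with a threshold of 0.05. An SE was obtained as the size of the log2 fold change over the root of F. The script was tested on simulated counts. Differences between replicates exceeded sampling noise, with a chi-square per degree of freedom of 80.7 to 373. Named genes were the 10 highest and 10 lowest fold changes among called genes that had a symbol, a log2 CPM averaging 1 or more and no overlap, with and without U0126 posterior replicate 5 (filled to 10 by smallest p where fewer passed), up to 4 genes of each of 30 lists, and a fixed set of limb genes. DHRS3, SNAI2, SQSTM1, PGD, SQLE, LSS, HMGCS1, COMP, NQO1 and HMOX1 were added after their values were seen. PMEL, MLANA and PNP, given with the pigment cell genes, are also outside these rules. Some genes counted in the lists are not reported here. Of 551 list symbols, 489 were in the files. The members and lists were chosen with earlier results of these data known. Alternatives were RLE and total-count scaling, 2 other filters, a strand-specific column, a fit of the compared groups alone, a block for the replicate number, a minimum of 2-fold, DESeq2 1.42.0, and fits with libraries left out. Figures were drawn with matplotlib 3.10.9.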

Additional observations from a re-analysis of the deposited data

Results flagged for a closer look

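Among 222 sets of 5 libraries (genes and marker shares in each of the compared groups), 19 held 1 library far from the others by Dixon's criterion, which chance alone meets in about 1 of 20 sets without ties. Gene levels were compared as log2(CPM + 0.1) and are given as CPM. The causes of the 19 flags were not tested. U0126 posterior replicate 4 stood apart for LHX2 (1.34 CPM, others 0.0468 to 0.108), GLI3 (22.1 CPM, others 8.42 to 11.1) and PTCH1 (15.2 CPM, others 3.19 to 4.87). It did so too for the shares of cartilage and bone genes (0.0574%, others 0.0244% to 0.0326%) and lymphocyte genes (0.0127%, others 0.00862% to 0.00975%). U0126 posterior replicate 5 stood apart for SNAI2 (97.7 CPM, others 35.7 to 46.5), ABCB6 (21.8 CPM, others 51.2 to 70.7) and the share of wound epidermis genes (0.251%, others 0.122% to 0.152%). AIFM3 was at 15.6 CPM in U0126 posterior replicate 1, against 3.63 to 5.38 CPM in the others. Skeletal muscle genes took 1.66% of the counts of U0126 posterior replicate 3, against 0.0933% to 0.429% in the others.

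Among anterior blastemas, replicate 4 stood apart for CYP26B1 (83.6 CPM, others 315 to 456), LGR5 (0.0738 CPM, others 0.0181 to 0.0234), CA3 (0.418 CPM, others 0 to 0.057), HSP90AA1 (23.3 CPM, others 33.9 to 37.8) and the share of muscle progenitor genes (0.00727%, others 0.000847% to 0.00232%). Replicate 3 stood apart for BMP7 (18.6 CPM, others 25.6 to 29) and FLI1 (7.58 CPM, others 13.9 to 17.5). DDAH1 was at 8.60 CPM in replicate 5, against 15.5 to 17.8 CPM in the others. SHH was at 0.0368 CPM in replicate 1 and at 0 in the other anterior libraries.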

How the results depend on the processing

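The count of called genes moved with the test, the filter and the libraries. Against 229 genes (109 higher, 120 lower) there were 117 with a 2-fold minimum (53 and 64), 143 with no filter (61 and 82), 99 with only the 2 groups compared (34 and 65) and 1280 with DESeq2 (626 and 654). Without U0126 posterior replicates 4 and 5 there were 951 (419 and 532), and without U0126 posterior replicate 5 and uninjured replicate 1 there were 898 (502 and 396). RLE scaling gave 247, the stricter filter 303, the other strand column 212 and total counts 190. Leaving out 1 library at a time gave 36 to 828 called genes, 15 to 274 higher and 21 to 554 lower. With the replicate number as a block there were 168 (64 higher and 104 lower). Same-numbered deviations correlated at 0.339, 0.000593, −0.165, −0.0839 and 0.0279 for numbers 1 to 5. Differently numbered libraries were not correlated for reference, so these values cannot decide whether shared numbers pair libraries.

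Directions turned for values that had not passed. HAND2 had a log2 fold change of −0.14 without U0126 posterior replicates 4 and 5, an alternative chosen after seeing the data. Leaving out 1 library gave −0.53 to 1.18 for HAND2, −0.26 to 1.19 for HOXD13, −0.30 to 1.19 for HOXA11 and −0.20 to 0.54 for SHOX2. The differences in share, again with 1 library left out, ran from −0.00275 to 0.00532 percentage points for Schwann cell and nerve genes. For differentiated epidermis genes they ran from −0.0280 to 0.0143. The causes were not tested. Of the other values for single genes and shares, 2869 kept direction and side of the threshold, 145 passed it newly, 244 lost it and 199 moved without a test. Depth limited SHH, IBSP, TYRP1, LGR5 and RARB, which had few reads.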

Other observations

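Some gene groups outside the comparison above were drawn up after the values were seen, so their counts are descriptions. Of 68 nuclear-encoded respiratory chain genes, 5 were higher in U0126 posterior than in anterior blastemas (0.562% of all genes) and none lower. Of the 68, 67 had a log2 fold change above 0 and the median was 0.32. Without U0126 posterior replicate 5, 16 were higher (1.21% of all genes). Of 20 genes of the citric acid cycle and the pyruvate dehydrogenase complex, 4 were higher (0.562% of all genes). All 20 had a log2 fold change above 0, as had 10325 of all 19398 genes, and the median was 0.41. Without replicate 5, 9 were higher (1.21% of all genes). SDHA, SDHB, SDHC and SDHD are in both groups. The calls of SDHA and SDHB are thus counted in each, as are those of all the SDH genes without replicate 5. SDHA, the flavoprotein of succinate dehydrogenase, averaged 325 CPM in U0126 posterior and 144 CPM in anterior blastemas, with a log2 fold change of 1.17 ± 0.21 (SE; edgeR, adjusted p = 0.0168; 0.000399 without U0126 posterior replicate 5). NDUFV1, a subunit of complex I, averaged 161 CPM in U0126 posterior and 92.2 CPM in anterior blastemas (log2 fold change 0.81, adjusted p = 0.0103; 0.000327 without U0126 posterior replicate 5). Skeletal muscle genes, which mark a tissue rich in mitochondria, took 0.539% ± 0.640 of the counts in U0126 posterior and 0.146% ± 0.186 in anterior blastemas (SD, n = 5 each), and their part in these values was not tested.

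Ephrins and their receptors, which guide cells by contact, had 3 lower genes of 18 tested (0.619% of all genes) and none higher, and again 3 lower without U0126 posterior replicate 5 (1.01% of all genes). EFNA4 had a log2 fold change of −1.01 ± 0.17 (SE; edgeR, adjusted p = 0.0129; 0.00784 without replicate 5), EFNB1 one of −0.81 (adjusted p = 0.0281; 0.0241 without replicate 5) and EFNA5 one of −0.85 (adjusted p = 0.0322; 0.0396 without replicate 5). These calls and those of SDHA and NDUFV1 were not followed through the fits that left out 1 library other than U0126 posterior replicate 5.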
